A study of Rattus norvegicus with 6 samples.

Results

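Slpi and 6 other genes that inflammation is known to induce were read on each hippocampal array: the serpins Serpina3n, Serping1 and Serpinb1a, the metalloproteinase inhibitor Timp1, the macroglobulin A2m and the lipocalin Lcn2. These 7 genes stand among 20155 genes that have a symbol of their own on the array. A gene was found by its symbol, and where a symbol named more than 1 transcript cluster the brightest was read. The genes were chosen by their known roles with results of these arrays already in view, and Slpi was selected on its measured difference between the noise and control arrays. Their differences between the groups are therefore given as a description, with no p-value.

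The animals were 3-week-old female rats of the SD strain (Sprague-Dawley), with 6 rats in each group. White noise of 115 dB SPL, from 2 to 20 kHz, was played to the noise group for 4 hours on each of 3 days, and the control group had no such noise. By the study's methods, all rats then had a hearing test under Zoletil and xylazine anaesthesia and were killed 6 to 8 hours later, and tissue was taken around the dorsal CA3 field, whereas the sample labels place collection right after the exposure. Each group had 3 Affymetrix Rat Gene 2.0 ST arrays, each from the pooled tissue of 2 rats, so the spread between arrays is a spread between pools. The arrays keep the numbers of their labels, control 1, 2 and 6 and noise 2, 3 and 4. Values are log2 signals after Robust Multi-Array Average (RMA) processing. All arrays had the same distribution, with a median of 5.05 and with 25% of clusters below 3.69, and a gene's level is stated against that median. Probes differ in how well they bind, so levels were not ranked between genes. In bulk tissue, fewer cells of a type and less RNA per cell cannot be told apart.

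Protease inhibitors hold in check the enzymes that leukocytes, glia and blood release at sites of injury. SLPI is a small secreted protein with whey acidic protein domains that blocks neutrophil elastase and cathepsin G and dampens NF-κB signaling. Serpins are suicide substrates: the protease cuts an exposed loop and is trapped in a covalent complex. TIMPs plug the active site of matrix metalloproteinases, and macroglobulins cage proteases of every class. Cytokines that act through NF-κB, STAT3 and C/EBP factors induce most of these genes in liver, epithelia or reactive glia, and Serpina3n and Lcn2 are widely used as markers of reactive astrocytes in mice.

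On these arrays, Slpi was the member with a clear separation of the groups. The study's own quantitative PCR, on hippocampal tissue of other rats, had a higher mean of SLPI in the noise group, but the difference was not significant. Control arrays 1, 2 and 6 read 3.98, 3.49 and 3.77, and noise arrays 2, 3 and 4 read 4.51, 5.01 and 4.33. Every noise array was above every control array, with a gap of 0.35 between the nearest arrays. The mean was 3.75 ± 0.25 (SD, n = 3) in the control group and 4.62 ± 0.35 (SD, n = 3) in the noise group. The difference of 0.87 on the log2 scale (standard error 0.20, 95% interval 0.40 to 1.34) is a fold of 1.83. Over all genes, 16 were higher in the noise group by at least that much, Slpi included. Both group means were below the array median, by 1.30 in the control group and by 0.43 in the noise group. On the control arrays Slpi stood between the 22.1 and the 29.6 percentile of clusters, and on the noise arrays at the 39.3, 49.3 and 35.9 percentile. Its pooled SD within groups was 0.30, against a median of 0.18 for the 6136 genes with a mean signal from 3 to 5.

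Slpi was lowest on control array 2 and highest on noise array 3. Leaving out 1 array at a time gave differences from 0.67, without noise array 3, to 1.01, without noise array 4. Without both control array 2 and noise array 3, which was tried only once the data were known, the difference was 0.54 with a standard error of 0.14. These arrays were left out for being the extremes of Slpi, so the difference had to become smaller, and nothing is read from its size. They were also the lowest and highest arrays for 1036 of the 20155 genes, or 5.14%, and for the other pairs of arrays this share had a median of 3.3% and a highest value of 4.72%.

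**Figure D1:**
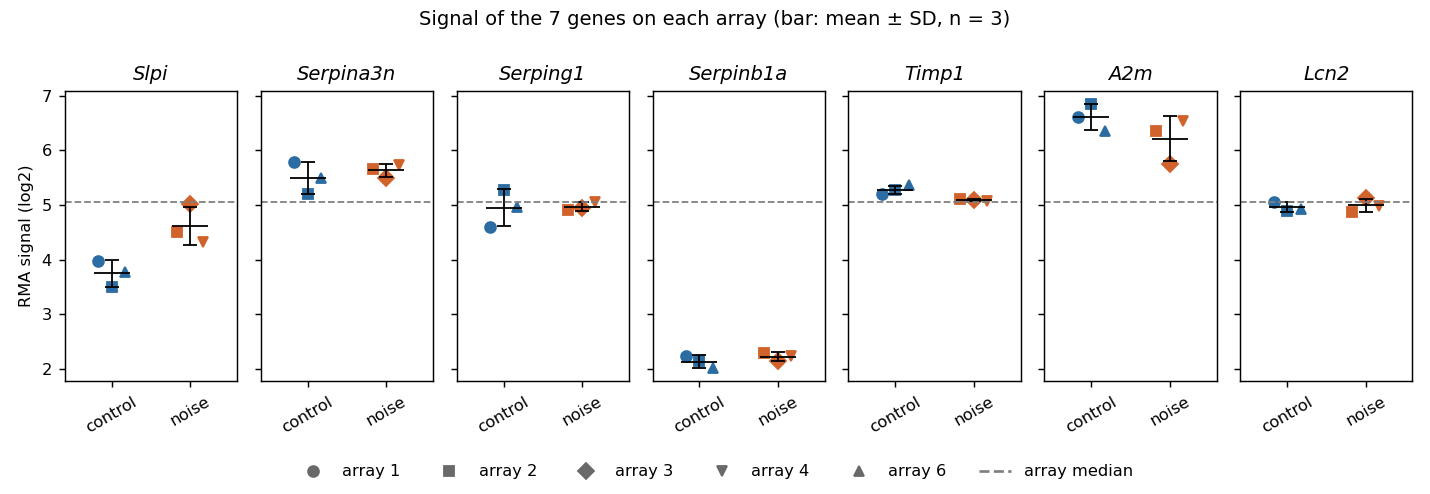
RMA signal (log2) of the 7 genes on the 3 control arrays (blue) and the 3 noise arrays (orange), with symbols for array numbers, bars for the mean ± SD and a dashed line at the array median of 5.05. Slpi lies between 3.49 and 3.98 on the control arrays and between 4.33 and 5.01 on the noise arrays, while Timp1 is the only other gene whose groups do not overlap.

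The gene whose pattern over the 6 arrays was most like that of Slpi was Colec10, a collectin that binds sugars on microbes and cell debris. Likeness was the root mean square difference after each gene's own mean was subtracted, and it was 0.12 on the log2 scale for Colec10, the first of 20154 genes. For Colec10, control arrays 1, 2 and 6 read 4.07, 3.33 and 3.84, and noise arrays 2, 3 and 4 read 4.45, 4.76 and 4.30. As with Slpi, control array 2 was the lowest and noise array 3 the highest. Colec10 was picked for its likeness to Slpi on these same arrays, so nothing is read from the shared extremes. The study's quantitative PCR in other rats gave a lower level of COLEC10 in the noise group, the opposite direction to the arrays. The study lists that gene among those with no significant difference. The next genes were the olfactory receptor Olr137 at 0.17, LOC690655 at 0.18, the bitter taste receptor Tas2r108 at 0.18 and LOC288521 at 0.18. Of these 5 genes, Olr137 had a noise mean above the array median, at 6.14, and the other 4 had both group means below it. The other 6 members had distances from 0.46 for Serpina3n and Lcn2 to 0.81 for A2m. Of 20154 genes, Lcn2 ranked 4565, Serpina3n 4670, Serpinb1a 6407, Timp1 16056, Serping1 16188 and A2m 19923.

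Because 2 of these 5 genes are chemosensory receptors, the whole Olr family of olfactory receptors, a group chosen after its values were seen, was read beside Slpi. Of 1153 Olr genes, 13 were higher and 7 were lower at an unadjusted p of at most 0.05 from limma and a fold of at least 1.5, which is 1.13% and 0.607%. Over all genes these shares were 0.288% and 0.595%. The family had a median difference of 0.03, and 1110 of its genes had means below the array median. Whether Slpi and these receptors share a source of signal was not tested.

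**Figure D2:**
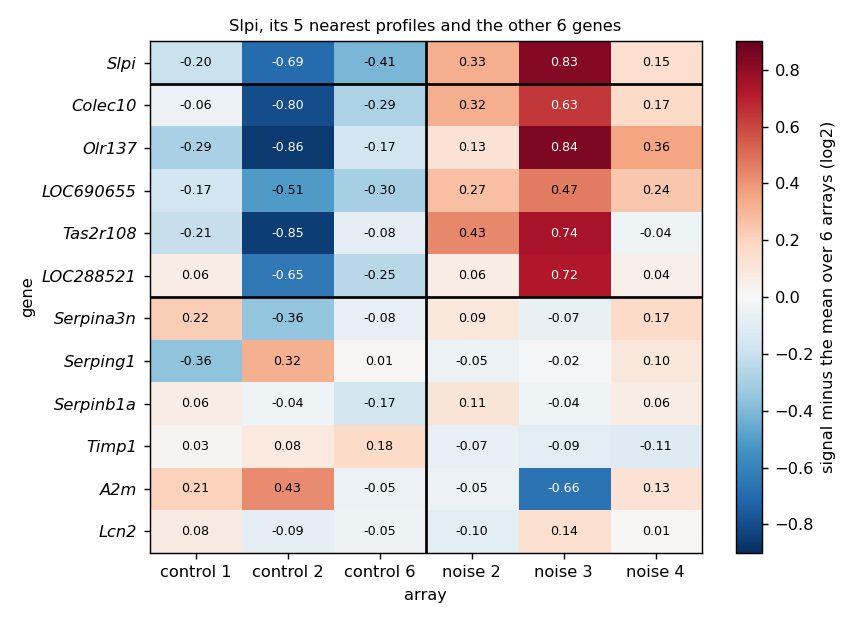
Signal minus the gene's mean over the 6 arrays (log2, colour scale and printed values) for Slpi in the top row, its 5 nearest profiles below it and the other 6 members at the bottom, with control arrays left and noise arrays right of the line. In the upper 6 rows control 2 is lowest and noise 3 is highest, which for Slpi are signals of 3.49 and 5.01, and for A2m control 2 is highest and noise 3 lowest. The 5 profiles were picked for likeness to Slpi on these arrays, so their shared extremes largely follow from that choice.

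The 3 serpins had differences of at most 0.14 on the log2 scale, and their groups overlapped. Serpina3n, which inhibits granzyme B and chymotrypsin-like proteases in mice, had signals of 5.79, 5.21 and 5.49 for control pools 1, 2 and 6 and of 5.66, 5.50 and 5.74 for noise pools 2, 3 and 4. The highest and the lowest value both came from control arrays. Its difference was 0.14 with a standard error of 0.16 and a 95% interval from -0.23 to 0.50, and all its values were above the array median. A dimmer cluster of the same symbol had means of 3.07 ± 0.24 (SD, n = 3) and 3.15 ± 0.12 (SD, n = 3) in the control and noise groups. A cluster shared with LOC299282 had means of 3.49 and 3.22 and a difference of -0.27 (standard error 0.15). Serpina3 genes form a cluster of similar copies, so a probe may pick up RNA of several.

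Serping1, the C1 inhibitor that stops the first proteases of complement and of the contact system, had signals of 4.60, 5.28 and 4.97 in the control group and of 4.91, 4.94 and 5.06 in the noise group, in the same order of arrays. The noise arrays all lay within the range of the control group. Its difference was 0.02 (standard error 0.17, 95% interval -0.38 to 0.42), and it was 0.19 without control array 2 and -0.16 without control array 1. Serpinb1a, an intracellular inhibitor of neutrophil proteases, had signals of 2.24, 2.14 and 2.01 in the control group and of 2.29, 2.14 and 2.24 in the noise group. It lay between the 4.92 and the 7.91 percentile of clusters on each array, with a difference of 0.09 (standard error 0.10, 95% interval -0.15 to 0.34). The files give no detection calls, so whether its probes measured RNA above background is not known.

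Timp1 and A2m were the members with lower means in the noise group. Timp1, the TIMP that cytokines and growth factors induce, had signals of 5.21, 5.27 and 5.36 for control pools 1, 2 and 6 and of 5.11, 5.09 and 5.07 for noise pools 2, 3 and 4. The groups did not overlap, and the gap between the nearest arrays was 0.10. The difference was -0.19 with a standard error of 0.09 (95% interval -0.40 to 0.02), which is 0.875 of the control signal. Groups that did not overlap were seen for 8.87% of all genes in this direction and for 8.37% in the direction of Slpi. A2m, the macroglobulin that is a leading acute phase protein of rat liver, had signals of 6.62, 6.84 and 6.36 in the control group and of 6.36, 5.75 and 6.54 in the noise group. Noise array 3 stood below the others, and the groups overlapped. Its difference was -0.39 (standard error 0.22, 95% interval -0.90 to 0.12), or -0.16 without noise array 3 and -0.04 without both noise array 3 and control array 2, which hold its lowest and highest values.

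Lcn2 binds iron-loaded siderophores of bacteria and is not itself a protease inhibitor, although in humans it is found in a complex with MMP9. Control arrays 1, 2 and 6 read 5.06, 4.89 and 4.93 for Lcn2, and noise arrays 2, 3 and 4 read 4.88, 5.12 and 4.99. The lowest and highest values were both from noise arrays. The difference was 0.03 (standard error 0.11, 95% interval -0.21 to 0.28), and the group means were 0.09 and 0.05 below the array median.

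**Figure D3:**
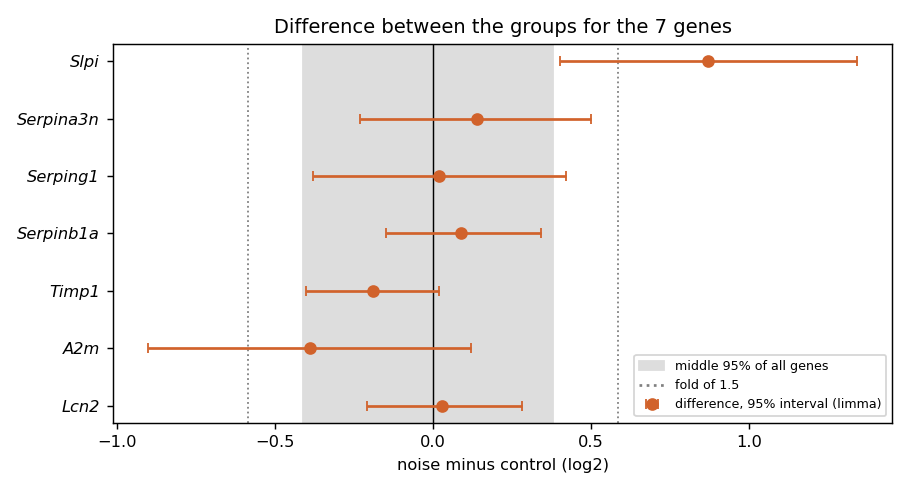
Difference between noise and control means (log2, horizontal axis) for the 7 genes, with 95% intervals from limma, the middle 95% of all genes shaded from -0.41 to 0.38 and dotted lines at a fold of 1.5. Slpi lies beyond the dotted line at 0.87, and the intervals of the other 6 genes end below the same line.

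Of the 7 genes, 1 was higher, none was lower and 6 passed neither threshold, where 0.883% of all genes passed in either direction. Since the genes were chosen with this contrast known, nothing is read from that count. The intervals of the 6 others ended at 0.50 or below, short of a rise by a fold of 1.5, and that of A2m reached past a decrease of the same size. The differences had a median of 0.03, against 0.00 for all genes, and 5 of the 7 were above 0.

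The promoters of Lcn2 and Serpina3n are shown beside that of Nfkbia, because these members hold letters that match elements of inducing routes and because Nfkbia was the single inducer gene that was higher. Each sequence is the 250 bases before the start site in RefSeq, read 5′ to 3′ on the gene's strand, and 4 of the 7 members matched the RefSeq table (Lcn2, Serpina3n, Serpinb1a and Timp1). Capitals mark a match to the NF-κB consensus in Lcn2 and Nfkbia and to the STAT element TTCNNNGAA in Serpina3n.
Lcn2, GRCr8 chr3:36081781-36082030, minus strand: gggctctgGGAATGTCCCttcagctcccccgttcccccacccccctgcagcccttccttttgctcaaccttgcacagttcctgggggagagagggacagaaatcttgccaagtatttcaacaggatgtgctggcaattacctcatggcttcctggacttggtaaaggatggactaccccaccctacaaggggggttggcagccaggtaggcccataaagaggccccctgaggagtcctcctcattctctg
Serpina3n, GRCr8 chr6:129088142-129088391, plus strand: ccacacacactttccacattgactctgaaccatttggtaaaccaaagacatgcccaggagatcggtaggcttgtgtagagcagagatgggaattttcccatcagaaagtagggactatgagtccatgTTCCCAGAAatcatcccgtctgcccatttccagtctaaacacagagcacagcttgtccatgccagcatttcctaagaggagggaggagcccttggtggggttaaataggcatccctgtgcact
Nfkbia, GRCr8 chr6:78597073-78597322, minus strand: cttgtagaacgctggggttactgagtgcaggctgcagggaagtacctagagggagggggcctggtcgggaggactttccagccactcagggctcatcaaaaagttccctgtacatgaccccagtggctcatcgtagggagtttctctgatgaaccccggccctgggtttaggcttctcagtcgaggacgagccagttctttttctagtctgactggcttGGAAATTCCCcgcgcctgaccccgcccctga
The NF-κB match of Lcn2 begins 242 bases before the start site and that of Nfkbia 31 bases before it, both on the opposite strand. The STAT match of Serpina3n begins 123 bases before its start site. Both strands were searched, the printed matches overlap no other match, and of 27457 promoter windows of this length 6.41% held the NF-κB consensus and 7.52% the STAT element. The core of the glucocorticoid response element, searched as ACANNNTGT, matched in Lcn2 and Serpina3n and in 5.62% of all windows. The AP-1 element TGANTCA was in 6.36% of all windows and in none of these 3 sequences. Serpinb1a and Timp1, whose sequences are not shown, held no match to any of these elements. A match is a stretch of letters and does not show that a factor bound there. Nfkbia and Lcn2, which both hold the NF-κB consensus, had differences of 1.14 and 0.03.

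Genes of the routes that induce the members were read from a list of 24 cytokines, receptors and transcription factors. Over all genes 0.883% passed the thresholds, and of these 24 it was 1, as higher, while 23 passed in neither direction. That gene, Nfkbia, encodes the inhibitor that holds NF-κB in the cytoplasm and is itself a target of NF-κB and of glucocorticoids. Its signals were 6.65, 6.64 and 6.64 for control pools 1, 2 and 6 and 8.01, 7.69 and 7.67 for noise pools 2, 3 and 4. Its groups were far apart, with a difference of 1.14 (standard error 0.12, adjusted p = 0.073 from limma). Over the 24 genes the median difference was 0.02, against 0.00 for all genes. Il1b, Tnf, Stat3 and Socs3, named for their role and after the values were seen, had differences of 0.19, 0.28, 0.03 and 0.19, with standard errors of 0.13, 0.17, 0.12 and 0.13. Of the 24 genes, 2 were higher and 4 lower with groups that did not overlap, where the shares over all genes were 8.37% and 8.87%. Nfkb1, which encodes a DNA-binding subunit of NF-κB, was furthest below 0 in the list, with a difference of -0.47 (standard error 0.10, adjusted p = 0.33 from limma). Cntf, a cytokine that acts through STAT3, had a difference of -0.39 (standard error 0.09, adjusted p = 0.33 from limma). Il6 had a mean of 3.88 ± 0.15 (SD, n = 3) in the control group and 3.52 ± 0.12 (SD, n = 3) in the noise group, both below the array median.

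The proteases that the members are known to bind did not pass the thresholds, with Mmp2 as the exception, where 0.883% of all genes passed. None of 10 serine proteases of leukocytes passed the thresholds, and the list median was -0.03. Among them, Elane, Ctsg and Prtn3, the enzymes of neutrophil granules, had differences of -0.03, -0.07 and -0.03, and all 6 group means were below the array median. The largest difference was that of Mcpt1l1, a mast cell protease, at -0.27 (standard error 0.13, adjusted p = 0.52 from limma). Of 19 metalloproteinase genes and inhibitors, 1 was lower and 18 did not pass, with a median of -0.01. Mmp2, gelatinase A, had signals of 7.11, 6.25 and 5.95 for control pools 1, 2 and 6 and of 5.47, 5.83 and 5.72 for noise pools 2, 3 and 4. It was lower by a fold of 1.70 (adjusted p = 0.44 from limma), with its highest value on control array 1. Without that array its difference was -0.43, under the fold threshold. A fit that also held the mean of the choroid plexus markers gave 0.11 for Mmp2. Mmp9, the partner of Lcn2, had a difference of 0.03 (standard error 0.11). Timp2, Timp3 and Timp4 had differences of -0.13, -0.03 and 0.02.

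Among 12 genes of the plasminogen system none passed the fold threshold, so none was called, where 0.883% of all genes were. The list median was 0.03. Plat, the tissue plasminogen activator of neurons and endothelium, had signals of 8.04, 7.97 and 7.92 in the control group and of 8.44, 8.51 and 8.50 in the noise group. Its groups were apart by more than the spread within them, with a difference of 0.51 (standard error 0.09, fold 1.42, adjusted p = 0.28 from limma). Serpine2 and Serpini1, the serpins that neurons and glia make in the healthy brain, had differences of -0.03 and -0.08.

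No further member of the inhibitor families was called, where 0.883% of all genes were. At that share, lists of these sizes would hold few called genes or none. Of 39 other serpins none passed the thresholds, 24 of them had differences above 0 and the median was 0.03. Of 43 other genes with whey acidic protein, Kunitz or Kazal type domains none passed, and the median was 0.08. The largest difference there was that of Spink3, a trypsin inhibitor, at 0.48 (standard error 0.14, adjusted p = 0.38 from limma), with group means of 2.88 and 3.35. Of 20 cystatins and related genes none passed, with a median of -0.03, and Cstb, an inhibitor of lysosomal cathepsins, had the largest difference at 0.44 (standard error 0.19). A list of 6 genes held 4 of the macroglobulin family (Cd109, Mug1, Mug2 and Pzp), the receptor Lrp1 and the matrix protein gene Ecm1, which is not of that family. None passed, with a median of 0.01 and the largest difference at -0.35 for Cd109. Lrp1, the receptor that clears A2m with its bound protease, had a difference of -0.12 (standard error 0.10).

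None of 10 early complement and contact genes passed, where 0.883% of all genes did, and the list median was 0.06. C1r, a protease that Serping1 inhibits, had a mean of 5.70 ± 0.10 (SD, n = 3) in the control group and 5.48 ± 0.13 (SD, n = 3) in the noise group. The largest difference below 0 in the list was that of Kng1 at -0.25 (standard error 0.16). The largest above 0 was that of C1qb at 0.25 (standard error 0.09). Of the 10 genes, 6 had differences above 0 and 4 below. Of 16 acute phase proteins, lipocalins and Lcn2 receptors none passed, 13 had differences above 0 and the median was 0.11. Fgg, a chain of fibrinogen, had the largest of these at 0.39 (standard error 0.12, adjusted p = 0.39 from limma), with group means of 2.85 and 3.24. Slc22a17, a receptor of Lcn2, had a difference of 0.06.

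Reactive astrocyte genes known from mice were not called in any of their 3 lists, where 0.883% of all genes were called. For 10 genes of the response common to lipopolysaccharide and ischaemia the median was -0.01, with Cp having the largest difference at -0.29. Gfap and Vim, filament genes of reactive astrocytes, had differences of 0.16 and -0.05 with standard errors of 0.16 and 0.09. For 9 genes of the lipopolysaccharide type the median was -0.22, 7 of the 9 were below 0, and Amigo2 had the largest difference at -0.42 (adjusted p = 0.43 from limma). For 13 genes of the ischaemia type the median was 0.06 and the largest difference was 0.44 for Slc10a6. Over all 218 genes of these lists, 1 was higher and 1 was lower, and none passed an adjusted p of 0.05 from limma. At an unadjusted p of at most 0.05 there were 27 of them by limma, where 9.22% of all genes passed. The methods' t-test had 21 at that p and its form with unequal variances 13, and neither had a gene at an adjusted p of 0.05. Over all genes limma had 0.0149% at an adjusted p of 0.05. The share of 9.22% is that of limma as well. No share of all genes is given here for the other tests, so nothing is read from their counts of 21 and 13.

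**Figure D4:**
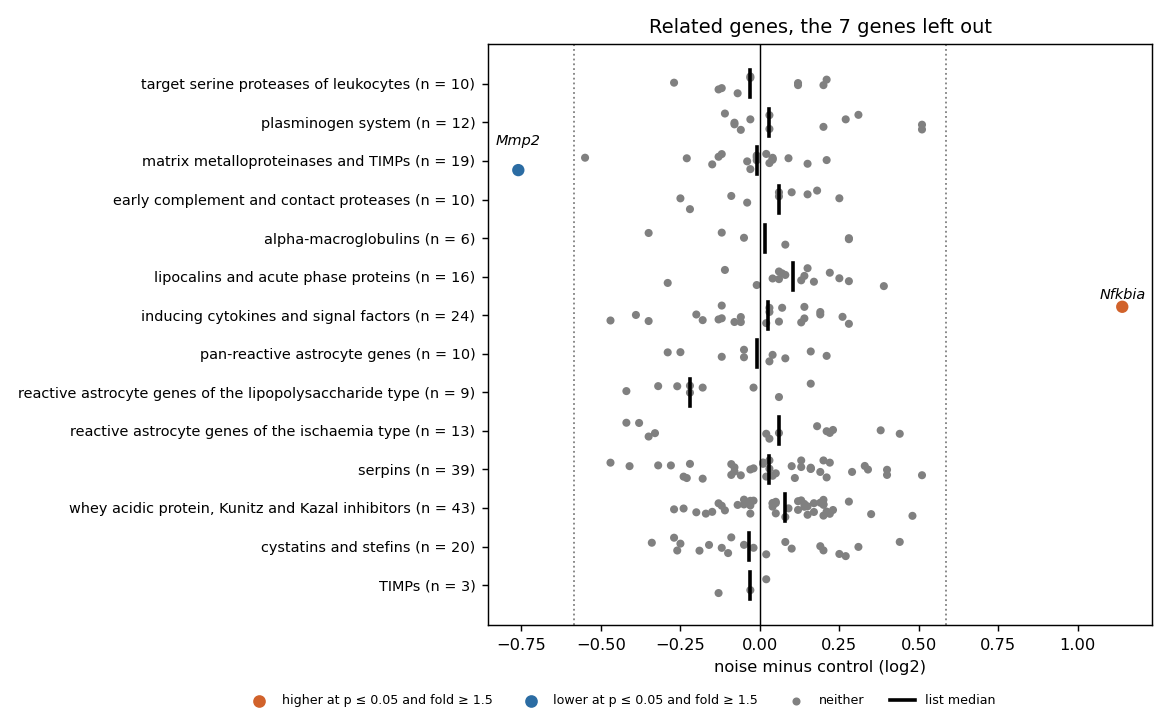
Difference between noise and control means (log2, horizontal axis) for each gene of 14 related lists, the 7 members left out, with black bars at list medians and dotted lines at a fold of 1.5. Nfkbia at 1.14 and Mmp2 at -0.76 are the genes past both thresholds, and the list medians lie between -0.22 and 0.11.

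Markers of cells that make these inhibitors were read on the same arrays. Hippocampal neuron markers had a list mean of 7.93 in both groups, and 9 of 11 were above the array median. Neutrophil markers had list means of 4.10 and 4.15 in the control and noise groups, and 11 of 12 were below the array median, with S100a8 at 2.64 and 2.66. None of 12 neutrophil, 12 microglia or 9 astrocyte markers passed the thresholds, where 0.883% of all genes did. The largest differences in these lists were 0.31 for S100a9, -0.31 for Cx3cr1 and -0.22 for Gjb6. Of 22 choroid plexus markers 13 passed as lower, Ttr with a difference of -4.26, where 0.595% of all genes passed as lower. The list means were 7.09, 6.49 and 5.57 for control pools 1, 2 and 6 and 5.12, 5.05 and 5.27 for noise pools 2, 3 and 4. Summed over the list, the linear signal was 2790 to 9230 on the control arrays and 1760 to 2010 on the noise arrays. With that list mean as a covariate, the difference of Slpi was 0.93 (standard error 0.37) and that of Timp1 was -0.31 (standard error 0.16). The same fit gave 0.29 for Serpinb1a (standard error 0.17), 0.35 for Serpina3n (standard error 0.27) and -0.07 for A2m (standard error 0.37). All noise pools were below all control pools in that mean, so group and covariate cannot be fully told apart. Of 13 markers of meninges and fibroblasts 2 were lower, Fmod and Igf2, with differences of -0.93 and -0.80. Of 8 endothelial markers none passed, with the largest difference at -0.49 for Emcn. The part of these cell types in the differences of Timp1 and A2m was not tested beyond that fit.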

How the data were processed

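Hippocampal RNA was measured on 6 whole-transcript arrays, 3 a group. The authors extracted the raw data, applied Robust Multi-Array Average and log2 transformation and, per the labels' processing notes, used GeneSpring GX 14.9.1. The deposited log2 values were used as they are, with no further normalization, and a second deposited table held the same values within 1.8e-15. The arrays give no read depth and no detection calls, and their number limits the precision. Columns of the authors' own comparison (fold change, log ratio and p-value) and their tables of selected genes were not used.

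Of 29489 transcript clusters, 20757 had 1 symbol, 768 had several and 7964 had none. The brightest cluster of each symbol was kept, which gave 20155 genes. limma 3.58.1 in R 4.3.3 was fitted to all clusters with group as the single term (prior degrees of freedom 3.47). A gene was called where the unadjusted p did not exceed 0.05 and the fold reached 1.5, and adjusted p-values are Benjamini-Hochberg values over all clusters. The fit was tested on simulated data. A limma p-value sets the group difference against the spread between these pools, with variance shared over all clusters. Nothing in the sources ties a pool to a cage, litter or day. If a group shared one of these, it could not be told apart from the exposure.

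The members and the lists were chosen with earlier results of these data known. Genes named are the 7 members, the called genes of each list (up to 4 in each direction by p) or the one with the largest difference where none was called, and the 5 genes nearest to Slpi. The result of 1 gene that this rule names is not reported here. Genes named beyond these were chosen for their role after the values were seen. Alternatives were renewed quantile normalization, median centring, a trended robust fit, array weights, a filter on dim clusters, the methods' t-test, its form with unequal variances, a choroid plexus covariate and leaving out arrays. Promoter windows came from RefSeq on GRCr8. The genome build of the array annotation is not given in the sources used here.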

Additional observations from a re-analysis of the deposited data

How the results depend on the processing

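The differences of the 7 members were recomputed in 96 settings, and 92 values stayed within the spread between replicates. Some settings could hardly move a difference. They were the second deposited table, renewed quantile normalization, median centring, the trended robust fit and the filter on dim clusters. The arrays already had the same distribution, and that fit and filter change the standard error alone. Nothing is therefore read from the share that stayed. The 4 values outside that spread were 0.54 for Slpi and -0.04 for A2m without control array 2 and noise array 3 (a setting added after seeing the data, in which both had to move toward 0 because these arrays hold their extremes), and 0.29 for Serpinb1a and -0.31 for Timp1 with the choroid plexus covariate. After rounding, the sign changed in 6 settings, all in members that passed no threshold. The difference of Lcn2 without control array 2 was -0.0 after rounding and is not among them. The filter on dim clusters left no value for Slpi, Serping1, Serpinb1a and Lcn2.

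Over all clusters 171 were higher and 260 lower. The counts were 56 and 89 among clusters at or above the array median, 100 and 151 with the methods' t-test, 77 and 113 with unequal variances, and 395 and 431 with the covariate. Leaving out 1 array at a time gave 180.0 to 322 higher and 247 to 405 lower, and both highest counts were without noise array 4. In the related lists 1 gene was higher and 1 lower. None was lower by either form of t-test, 5 were higher with the covariate, 3 were higher without control array 2 and noise array 3, and leaving out 1 array gave 1 to 2 higher and 0 to 2 lower. With the covariate the differences of Mmp2 and Timp2 turned to 0.11 and 0.08, and the cause was not tested.

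No paired analysis was possible because the groups share only replicate number 2. With no detection calls, signals near the lower end of the scale cannot be told from background.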
